A study of Mus musculus with 4 samples.

Results

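The genes described here encode 10 neutrophil granule and antimicrobial proteins, out of 20555 genes in the deposited table. They were picked by symbol: *Prtn3*, *Elane*, *Ngp*, *Camp*, *Ltf*, *Lcn2*, *Cd177*, *Padi4*, *Wfdc21* and *Slpi*, and all 10 were found, 1 row each. RNA was sequenced from mammary tumours of mice in 2 groups of 2 libraries. MYC-PyMT mice have the labelled genotype S100a8-creRosa26-LSL-MYCPyMT: a Cre recombinase driven by S100a8, a MYC allele at Rosa26 that stays silent until Cre cuts out a stop cassette, and PyMT, the polyoma middle T oncogene that makes mammary tumours. Control-PyMT mice are labelled PyMT, and the labels do not say whether they also carry Cre or the silent MYC allele. S100a8 is strongly expressed in neutrophils, and the labels do not say in which tumour cells Cre acted, which promoter drives PyMT, how old the mice were, or whether a group's 2 libraries stem from separate mice. The p-values therefore reflect only how far libraries of a group differed, and that spread may be technical. With 2 libraries per group, the spread used for each gene was in part borrowed from other genes.

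Neutrophils build their granules in order as they mature in the bone marrow. Azurophil granules, filled at the promyelocyte stage, hold the serine proteases; specific granules, filled later, hold lactoferrin, lipocalin 2 and cathelicidin; and mature neutrophils that have reached a tissue carry the proteins but little of the corresponding mRNA for many of them. Some of these proteins are not restricted to neutrophils: lactoferrin, lipocalin 2 and the protease inhibitor Slpi are also made by glandular epithelium, the mammary gland included.

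In MYC-PyMT tumours the genes moved in opposite directions. *Prtn3*, *Ngp*, *Camp*, *Padi4* and *Wfdc21* were higher than in Control-PyMT, *Ltf* and *Lcn2* were lower, *Cd177* and *Slpi* did not pass the test, and *Elane* was too low to be tested. The test was limma on log2 of the scaled counts plus 1, over the 16725 genes that reached 10 scaled counts in 2 or more libraries, with a Benjamini-Hochberg adjusted p under 0.05 counted as a call. Of the 10 genes 9 passed that filter. *Ngp* and *Camp* passed only through the MYC-PyMT libraries, so they had to differ, and their calls are no support for a direction of the whole set. Calls were made for 5 higher and 2 lower genes, beside 23.3% of all tested genes called higher and 24.6% called lower (47.9% in either direction). Among the 7 genes with at least 10 scaled counts in every library, 3 were called higher and 2 lower. For 8 of the 10 genes the values of the 2 groups did not overlap, 6 of them higher and 2 lower in MYC-PyMT, in a table where 75.7% of tested genes showed no overlap, 37% with MYC-PyMT higher and 38.7% with MYC-PyMT lower. The 6 higher genes include *Elane*, which did not pass the level filter, while these shares cover only genes that did. They also include *Ngp* and *Camp*, which had to differ. A count of that size is close to the background and is not a result about these genes.

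**Figure D1:**
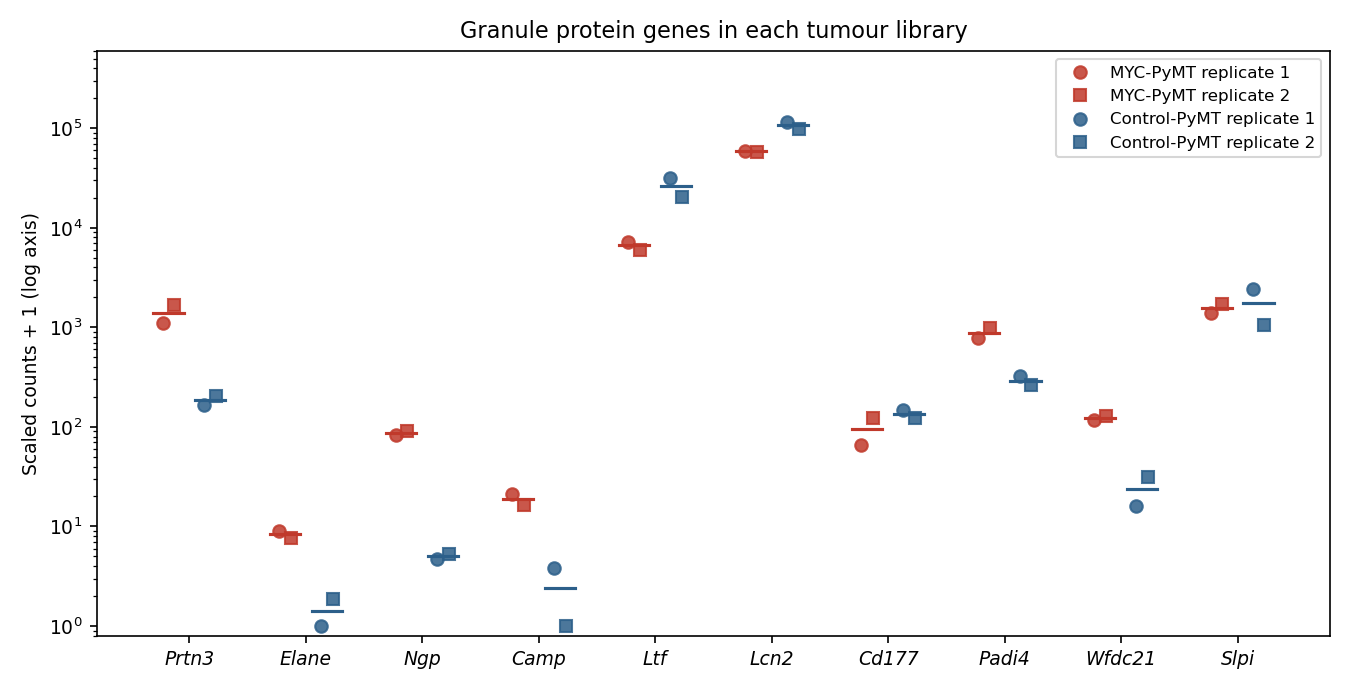
Level of each of the 10 genes in each library, as scaled counts plus 1 on a log axis; circles are replicate 1, squares replicate 2 and bars the mean of 2 libraries. *Lcn2* and *Ltf* are the most abundant and are lower in MYC-PyMT, while *Prtn3*, *Ngp*, *Camp*, *Padi4* and *Wfdc21* are higher; the groups overlap for *Cd177* and *Slpi*.

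The deposited values are scaled counts: every one of them was a whole multiple, within a tolerance of 0.001, of 1 step per library, so 1 read stands for 0.849 to 1.10 scaled counts. Summed over the genes of the table, the libraries held 31783846 to 34190913 reads, and reads outside these genes are not known. In bulk tumour RNA, fewer cells of a type and less RNA per cell cannot be told apart. *Epcam*, an adhesion molecule of epithelial cells and so a marker of the labelled tumour tissue, stood at 19648 and 19804 scaled counts in MYC-PyMT and at 26099 and 23374 in Control-PyMT.

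The start regions of 5 genes are shown because they set out what these genes share and where they differ in sequence: *Prtn3* and *Elane* are neighbours on chromosome 10 with 3072 bases between them but very different levels, *Ngp* and *Ltf* are specific granule genes that moved in opposite directions, and *Padi4* holds an E-box, the motif that MYC and related factors bind. *Ngp* passed the level filter only through the MYC-PyMT libraries, so its direction was fixed by the filter. The sequences are RefSeq windows of 300 bases around the annotated start, in GRCm38.p6, 5′ to 3′ on the gene's own strand. Their positions are chr10:79879417-79879716 on the plus strand for *Prtn3*, chr10:79886062-79886361 on the plus strand for *Elane*, chr9:110419558-110419857 on the plus strand for *Ngp*, chr9:111019042-111019341 on the plus strand for *Ltf* and chr4:140774154-140774453 on the minus strand for *Padi4*. Capitals mark matches to 5 short motifs chosen after the data had been seen: GAGGAA (an ETS core, the kind bound by PU.1), CAACGG (a MYB core), TTGCNNAA (paired C/EBP sites) and CACGTG (the E-box), each searched on both strands, and TATAA, searched on the printed strand only. No 2 of the marked matches overlap in these windows.
Prtn3: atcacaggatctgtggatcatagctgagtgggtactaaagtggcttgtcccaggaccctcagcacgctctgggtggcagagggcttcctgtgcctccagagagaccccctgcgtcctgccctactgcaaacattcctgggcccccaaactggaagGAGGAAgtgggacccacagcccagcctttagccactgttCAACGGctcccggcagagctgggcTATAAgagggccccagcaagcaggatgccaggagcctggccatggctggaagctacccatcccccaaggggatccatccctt
Elane: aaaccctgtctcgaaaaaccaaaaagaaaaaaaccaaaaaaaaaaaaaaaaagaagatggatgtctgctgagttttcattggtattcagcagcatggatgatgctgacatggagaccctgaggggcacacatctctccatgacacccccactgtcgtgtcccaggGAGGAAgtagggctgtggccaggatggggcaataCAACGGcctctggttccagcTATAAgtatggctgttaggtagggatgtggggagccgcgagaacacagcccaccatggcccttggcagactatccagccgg
Ngp: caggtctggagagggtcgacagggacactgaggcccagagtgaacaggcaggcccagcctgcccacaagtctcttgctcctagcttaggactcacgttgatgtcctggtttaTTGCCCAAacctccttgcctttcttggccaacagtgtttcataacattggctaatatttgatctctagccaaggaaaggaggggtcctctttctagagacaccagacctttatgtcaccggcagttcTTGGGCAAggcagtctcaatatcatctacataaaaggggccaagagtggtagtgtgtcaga
Ltf: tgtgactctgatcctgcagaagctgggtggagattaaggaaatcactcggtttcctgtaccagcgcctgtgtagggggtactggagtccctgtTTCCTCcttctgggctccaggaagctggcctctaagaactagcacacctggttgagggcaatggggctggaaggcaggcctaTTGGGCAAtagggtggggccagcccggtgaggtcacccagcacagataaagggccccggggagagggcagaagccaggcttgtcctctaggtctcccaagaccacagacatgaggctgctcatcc
Padi4: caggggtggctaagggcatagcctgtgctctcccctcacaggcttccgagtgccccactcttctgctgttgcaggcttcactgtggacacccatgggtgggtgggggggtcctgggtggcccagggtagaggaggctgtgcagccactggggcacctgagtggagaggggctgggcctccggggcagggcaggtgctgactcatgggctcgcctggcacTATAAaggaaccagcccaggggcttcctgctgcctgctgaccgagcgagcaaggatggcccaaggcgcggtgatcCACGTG

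The *Prtn3* and *Elane* windows carry the same 3 motifs in the same order at nearly the same places. Counted from the start site, GAGGAA begins at -95 in *Prtn3* and -85 in *Elane*, CAACGG at -56 and -51, and TATAA at -32 and -31. Of 32851 mouse promoter windows of the same length, 28.3% hold GAGGAA, 5.12% CAACGG and 17.5% TATAA, and among the 9 granule genes with a window CAACGG was found in *Prtn3* and *Elane* alone. TTGCNNAA, held by 10.8% of windows, was found in *Ngp*, *Ltf*, *Lcn2* and *Slpi*, which include a gene called higher, 2 called lower and 1 without a call. CACGTG, held by 7.15% of windows, was found in *Padi4*, 44 bases after the start, and in *Slpi*. These matches describe letters in a window and not sites in use. The RefSeq starts used for *Slpi* and *Lcn2* lie 32588 and 513 bases from the GENCODE starts of these genes. *Wfdc21* had no entry among the sequences used.

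*Prtn3* (ENSMUSG00000057729.12, chromosome 10, 79874476 to 79883174, plus strand) encodes proteinase 3, which, like elastase, is stored in azurophil granules and degrades matrix and microbial proteins. It had 1106 and 1685 scaled counts in MYC-PyMT, against 165 and 206 in Control-PyMT. The groups stood well apart, with MYC-PyMT replicate 2 the highest library. The change on the log2 scale came to 2.88 (SE 0.26; limma adjusted p = 3.94e-05), or 7.39-fold. It stayed between 2.58 and 3.19 in 13 alternative analyses, with the adjusted p at 0.0183 or lower. In the GENCODE annotation the gene starts 5191 bases upstream of the RefSeq start and shares 159 bases with *Plppr3* on the other strand. *Plppr3* had 1177 and 1903 scaled counts in MYC-PyMT, against 1058 and 1598 in Control-PyMT, with a log2 change of 0.20 that did not pass (limma adjusted p = 0.569).

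*Elane* (ENSMUSG00000020125.6, chromosome 10, 79886247 to 79888215, plus strand) encodes neutrophil elastase. It had 8 and 6 reads in the MYC-PyMT libraries, against 0 and 1 read in Control-PyMT. MYC-PyMT was thus higher in both libraries, at a level near the limit of detection. A floor of 3 reads is about the upper 95% bound for a count of 0. The ratio of the pooled levels was 16.5 with an exact 95% counting interval of 2.51 to 699, which covers counting error only. In an analysis without the level filter it was called higher (log2 2.61, limma adjusted p = 0.0108). In the same libraries *Prtn3* had 1099 and 1533 reads in MYC-PyMT, against 176 and 242 in Control-PyMT. Per kilobase of merged exon, the mean *Prtn3* level was 806 scaled counts in MYC-PyMT and 107 in Control-PyMT, and that of *Elane* 7.44 in MYC-PyMT and 0.432 in Control-PyMT. The change was thus in the same direction in both genes, while the levels of the neighbours differed widely in every library.

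*Ctsg*, the gene of cathepsin G, another azurophil protease, had 2 and 0 reads in MYC-PyMT and no read in Control-PyMT. *Elane* and *Ctsg* transcripts were thus at or near 0 in the libraries where *Prtn3* was high. Of the other 10 genes listed for azurophil granules and their processing, 7 were matched and 6 tested, with 1 called higher and 1 lower and a median log2 change of 0.44. *Lyz2*, lysozyme of macrophages and neutrophils, averaged 19444 ± 351 scaled counts in MYC-PyMT and 11664 ± 1267 in Control-PyMT (SD, n = 2 each; log2 0.74, limma adjusted p = 0.0104). Its call ended without either MYC-PyMT library (adjusted p = 0.0745 and 0.0913) and with the length trend removed (0.0811). *Srgn*, serglycin, the proteoglycan on which granule proteases are packed, averaged 929 ± 203 in MYC-PyMT and 1883 ± 742 in Control-PyMT (log2 -0.98, adjusted p = 0.0171). It was lost when MYC-PyMT replicate 1 (adjusted p = 0.0545), Control-PyMT replicate 1 (log2 -0.57, adjusted p = 0.162) or the variance trend (0.0727) was left out. *Cd63*, a membrane protein of azurophil granules and lysosomes, had a log2 change of 0.49 that did not pass (adjusted p = 0.116).

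Of the specific granule genes, *Ngp* and *Camp* were called higher, *Ltf* and *Lcn2* lower, and *Cd177* did not pass. *Ngp* and *Camp* passed the level filter only through the MYC-PyMT libraries, so they had to differ. Their calls are no support for a split among specific granule genes. *Ngp* (ENSMUSG00000032484.8, chromosome 9, 110419747 to 110423012, plus strand) encodes neutrophilic granule protein, a cathelicidin relative found in mouse myeloid precursors. It had 81.5 and 89.0 scaled counts in MYC-PyMT, against 3.74 and 4.25 in Control-PyMT, which is 162 reads against 9. Both MYC-PyMT libraries lay far above both Control-PyMT libraries and close to one another. The ratio of the pooled levels was 21.2 (exact 95% counting interval 10.9 to 47.3), and limma gave a log2 change of 4.11 (SE 0.43, adjusted p = 7.28e-05). With a pseudocount of 5 in place of 1 the log2 change was 3.33.

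*Camp* (ENSMUSG00000038357.10, chromosome 9, 109847379 to 109849617, minus strand) encodes the mouse cathelicidin, a precursor from which an antimicrobial peptide is cut. It had 20.1 and 15.4 scaled counts in MYC-PyMT, against 2.81 and 0 in Control-PyMT. That is 34 reads against 3, and all 3 were in Control-PyMT replicate 1. The ratio of the pooled levels was 13.4 with an exact 95% counting interval of 4.21 to 68.1. The fitted log2 change of 3.25 (SE 0.71, limma adjusted p = 0.00432) depends on the pseudocount and on single libraries: it was 1.86 with a pseudocount of 5, 2.29 without Control-PyMT replicate 2 and 4.22 without Control-PyMT replicate 1, all past the threshold.

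*Ltf* (ENSMUSG00000032496.7, chromosome 9, 111019271 to 111042767, plus strand) encodes lactoferrin, an iron-binding protein of specific granules and of milk. It had 7265 and 6018 scaled counts in MYC-PyMT, against 31535 and 20550 in Control-PyMT. Every MYC-PyMT value lay below every Control-PyMT value by more than the replicates differed. The change on the log2 scale came to -1.94 (SE 0.24; limma adjusted p = 0.000181) and ranged from -2.25 to -1.64 in 13 alternatives, all past the threshold. *Ltf* lies on the same chromosome as *Ngp*, 596258 bases away, and *Camp* lies 570129 bases on the other side of *Ngp*.

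*Lcn2* (ENSMUSG00000026822.14, chromosome 2, 32384633 to 32388252, minus strand) encodes lipocalin 2, which binds bacterial siderophores and so withholds iron. It had 59148 and 58212 scaled counts in MYC-PyMT, against 116104 and 98675 in Control-PyMT. The groups did not overlap, and the Control-PyMT libraries differed from each other more than the MYC-PyMT libraries did. The change on the log2 scale came to -0.87 (SE 0.24; limma adjusted p = 0.0133). The call was lost when MYC-PyMT replicate 1 (adjusted p = 0.122), MYC-PyMT replicate 2 (0.119) or Control-PyMT replicate 1 (0.0659) was left out, while the log2 change stayed between -0.98 and -0.75 and the adjusted p between 0.00642 and 0.122 in all 13 alternatives. *Lcn2* was among the most abundant transcripts of the tumours: per kilobase it ranked 68 of 20463 genes in MYC-PyMT and 12 in Control-PyMT.

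*Cd177* (ENSMUSG00000052212.6, chromosome 7, 24743983 to 24760311, minus strand) encodes a surface glycoprotein also stored in specific granules, which in human neutrophils holds proteinase 3 on the cell surface. It had 65.4 and 123 scaled counts in MYC-PyMT, against 148 and 121 in Control-PyMT. MYC-PyMT replicate 1 was the lowest library, and MYC-PyMT replicate 2 lay between the Control-PyMT libraries. The log2 change of -0.57 (SE 0.36, limma adjusted p = 0.223) did not pass, and was -0.12 without MYC-PyMT replicate 1 and -1.02 without MYC-PyMT replicate 2.

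*Padi4* and the small secreted inhibitors completed the set. *Padi4* (ENSMUSG00000025330.6, chromosome 4, 140745865 to 140774236, minus strand) encodes an arginine deiminase that citrullinates histones when neutrophils release extracellular traps. It had 781 and 987 scaled counts in MYC-PyMT, against 321 and 261 in Control-PyMT. Both MYC-PyMT libraries were higher than both Control-PyMT libraries. The change on the log2 scale came to 1.60 (SE 0.24; limma adjusted p = 0.000504), or 3.03-fold, and stayed between 1.43 and 1.77 in 13 alternatives. The other deiminase genes, of the same family, did not follow it: of 3 tested none was called higher and 2 were called lower, with a median log2 change of -1.39. *Padi1* averaged 27.1 ± 9.86 scaled counts in MYC-PyMT and 77.9 ± 14.1 in Control-PyMT (SD, n = 2 each; log2 -1.52, limma adjusted p = 0.0111), and *Padi3* averaged 56.1 ± 31.0 in MYC-PyMT and 141 ± 49.9 in Control-PyMT (log2 -1.39, adjusted p = 0.0258). Both are enzymes of skin and hair, and both calls ended when a library was left out: without MYC-PyMT replicate 1, Control-PyMT replicate 1 or Control-PyMT replicate 2 the adjusted p was 0.0600, 0.109 and 0.0706 for *Padi1* and 0.158, 0.260 and 0.104 for *Padi3*. *Padi2*, the widely expressed member, had 5362 and 1540 scaled counts in MYC-PyMT, against 1209 and 2828 in Control-PyMT, and did not pass (log2 0.64, adjusted p = 0.342). Without MYC-PyMT replicate 1 its log2 change was -0.26, and without MYC-PyMT replicate 2 it was 1.54 and past the threshold.

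*Wfdc21* (ENSMUSG00000051748.2, chromosome 11, 83746940 to 83752642, plus strand) encodes a small secreted protein with a whey acidic protein domain. It had 116 and 127 scaled counts in MYC-PyMT, against 15.0 and 30.6 in Control-PyMT. The MYC-PyMT libraries were alike, and both were above both Control-PyMT libraries. The change on the log2 scale came to 2.45 (SE 0.41; limma adjusted p = 0.00106). Its merged exons span only 434 bases, the shortest of the set. With each library's trend over transcript length removed, the log2 change was 1.65 (adjusted p = 0.0123), in a range of adjusted p from 1.33e-06 to 0.0256 over 13 alternatives.

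*Slpi* (ENSMUSG00000017002.14, chromosome 2, 164354070 to 164389095, minus strand) encodes an inhibitor of elastase and cathepsin G made by neutrophils and by mucosal and glandular epithelium. It had 1387 and 1721 scaled counts in MYC-PyMT, against 2445 and 1054 in Control-PyMT. The MYC-PyMT values lay between those of the Control-PyMT libraries, which were the highest and the lowest. The log2 change of -0.06 (SE 0.34, limma adjusted p = 0.907) did not pass, and its sign depended on the library left out: it was 0.10 without MYC-PyMT replicate 1, -0.66 without Control-PyMT replicate 2, and 0.55 without Control-PyMT replicate 1.

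**Figure D2:**
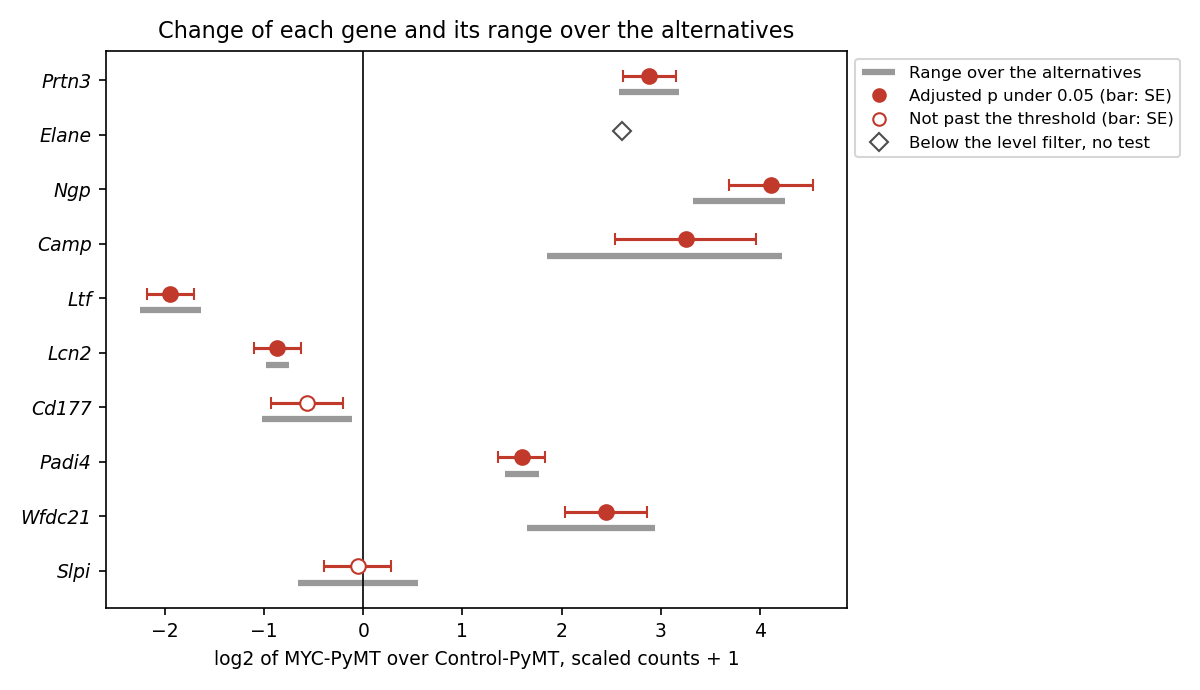
Log2 change of each gene in MYC-PyMT over Control-PyMT (red: limma estimate with its standard error; diamond: *Elane*, below the level filter) with the range over the alternative analyses in grey. The grey bar crosses 0 for *Slpi* alone, and that of *Camp* is the widest, from 1.86 to 4.22.

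Levels differed among the 10 genes far more than any of them changed. Summed, the 10 genes made up 0.203% and 0.197% of the scaled counts of the MYC-PyMT libraries, against 0.4999% and 0.433% in Control-PyMT. *Lcn2*, *Ltf* and *Slpi*, the genes also made by epithelium, were 96.9% and 95.6% of that sum in MYC-PyMT and 99.6% and 99.5% in Control-PyMT. A sum over the set is therefore a measure of *Lcn2* and *Ltf*. The other 7 genes together reached 2178 and 3033 scaled counts in MYC-PyMT, against 655 and 623 in Control-PyMT, and *Prtn3* was 50.8% and 55.5% of that part in MYC-PyMT, against 25.1% and 33.02% in Control-PyMT. Per kilobase of merged exon, *Prtn3* ranked 2416 of 20463 genes in MYC-PyMT and 9196 in Control-PyMT.

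Genes that mark neutrophils in other ways were set beside these values. *Csf3r*, the receptor for granulocyte colony-stimulating factor, had 141 and 103 scaled counts in MYC-PyMT, against 161 and 149 in Control-PyMT, and did not pass (limma adjusted p = 0.346). In each library *Prtn3* was 7.85 and 16.3 times *Csf3r* in MYC-PyMT, against 1.02 and 1.38 times in Control-PyMT. *Padi4* was 5.54 and 9.55 times *Csf3r* in MYC-PyMT, against 1.99 and 1.74 times in Control-PyMT. *Ngp* was 0.579 and 0.862 times *Csf3r* in MYC-PyMT, against 0.0233 and 0.0284 times in Control-PyMT. On the epithelial side, *Ltf* was 0.370 and 0.304 times *Epcam* in MYC-PyMT, against 1.21 and 0.879 times in Control-PyMT, and *Lcn2* was 3.01 and 2.94 times *Epcam* in MYC-PyMT, against 4.45 and 4.22 times in Control-PyMT. *Epcam* itself did not pass (adjusted p = 0.198). These ratios compare scaled counts, not divided by length, and were chosen after the data had been seen. They are given without a test and depend on the gene chosen to divide by. Among luminal markers, *Kit* and *Krt7* had log2 changes of -2.03 and -1.78, lower than that of *Lcn2* (-0.87), and *Elf5* had 0.46. The 16 tested neutrophil surface and cytoplasmic genes had a median log2 change of -0.11, against 1.60 for *Padi4*. Among them *Il1b* had -2.64 and *S100a9* 1.58. The *S100a9* change was 0.85 without Control-PyMT replicate 2 and 0.87 with the length trend removed. *S100a8* had 0.70, which did not pass, and *Csf3r* had -0.36.

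**Figure D3:**
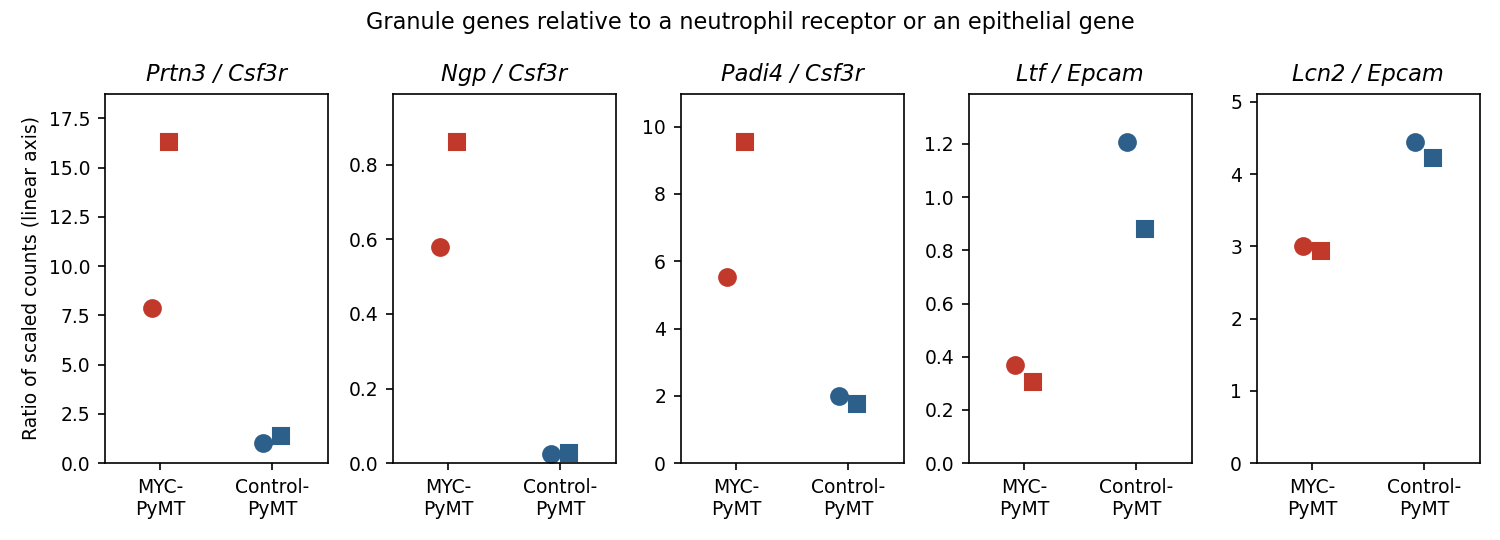
Ratio of scaled counts of *Prtn3*, *Ngp* and *Padi4* to *Csf3r* and of *Ltf* and *Lcn2* to *Epcam* in each library, on linear axes that start at 0 (circles: replicate 1; squares: replicate 2; red: MYC-PyMT; blue: Control-PyMT). For the *Csf3r* ratios the MYC-PyMT libraries lie above the Control-PyMT libraries, and for the *Epcam* ratios they lie below. Other markers of the same cells changed differently from *Csf3r* and *Epcam*, so these orders hold only for the genes chosen.

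Of 17 neutrophil surface and cytoplasmic genes, 16 were matched and tested, with 3 called higher, 2 lower and 11 not past the test, and a median log2 change of -0.11. The number called higher was 5 when Control-PyMT replicate 1 was left out (median 0.49) and with the replicate block, and 1 when Control-PyMT replicate 2 was left out (median -0.44), while a level filter of 50 left 8 genes with a median of 0.60. *Retnlg*, a resistin-like protein of mouse neutrophils, averaged 30.5 ± 1.90 scaled counts in MYC-PyMT and 7.14 ± 0.486 in Control-PyMT (SD, n = 2 each; log2 1.95, limma adjusted p = 0.00572). It passed the level filter only through the MYC-PyMT libraries, so it had to differ. *S100a9*, a subunit of calprotectin, averaged 1027 ± 201 in MYC-PyMT and 384 ± 254 in Control-PyMT (log2 1.58, adjusted p = 0.00925). It was lost when Control-PyMT replicate 2 was left out (log2 0.85, adjusted p = 0.0719), with the length trend removed (0.87, 0.0782) and without the variance trend (0.0536). *Il1b*, the inflammatory cytokine also made by macrophages, averaged 76.9 ± 6.27 in MYC-PyMT and 519 ± 267 in Control-PyMT (log2 -2.64, adjusted p = 0.000325). The summed level of these 16 genes was 3886 and 5143 scaled counts in MYC-PyMT, against 5730 and 2549 in Control-PyMT, so the groups overlapped. *S100a8* alone held 1564 and 2524 of these in MYC-PyMT, against 2338 and 639 in Control-PyMT. Whether a different number or maturity of neutrophils takes part in the changes of the granule genes was not tested.

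All 18 other specific and gelatinase granule genes were tested: 6 were called higher, 6 lower and 6 did not pass, with a median log2 change of 0.26. The number called higher was 4 with TMM scaling, with the length trend removed or when MYC-PyMT replicate 2 was left out. It was 3 when Control-PyMT replicate 2 was left out. The number called lower was 3 when Control-PyMT replicate 1 was left out, and 4 when MYC-PyMT replicate 2 or Control-PyMT replicate 2 was. The median was -0.06 with the length trend removed and likewise without MYC-PyMT replicate 2. *Chil3*, a chitinase-like protein of mouse neutrophils and macrophages, averaged 91.0 ± 3.43 scaled counts in MYC-PyMT and 15.0 ± 2.75 in Control-PyMT (SD, n = 2 each; log2 2.53, limma adjusted p = 0.000539). *Stfa2*, a stefin of mouse neutrophils, had 11.1 and 16.5 scaled counts in MYC-PyMT and no read in Control-PyMT. Its MYC-PyMT mean was 5.15 times the floor of 3 reads per library. *Stfa2* was called higher (limma adjusted p = 0.000857), but it has near-identical copies and its reads may be shared with them. *Olfm4*, olfactomedin 4, a specific granule protein that is also made by epithelium, had 3 reads in MYC-PyMT and 70 in Control-PyMT. Control-PyMT was 19.8-fold higher (exact 95% counting interval 6.49 to 98.2, limma adjusted p = 0.000631). *Stfa2* and *Stfa1* passed the level filter only through the MYC-PyMT libraries and *Olfm4* only through the Control-PyMT libraries, so these 3 called genes had to differ. Without them the calls were 4 higher and 5 lower.

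Regulators of granulocyte formation were mixed. Of 11 listed, 9 were matched and 8 tested, with 1 called higher and 2 lower, and a median log2 change of 0.10, which was below 0 in 5 of 13 alternatives, upper-quartile scaling among them, and lowest without Control-PyMT replicate 1 (-0.22). *Myb*, a transcription factor of blood progenitors that is also expressed in luminal mammary cells, averaged 1146 ± 160 scaled counts in MYC-PyMT and 428 ± 38.9 in Control-PyMT (SD, n = 2 each; log2 1.42, limma adjusted p = 0.000600). *Runx1*, a transcription factor of blood and mammary cells, averaged 1265 ± 149 in MYC-PyMT and 2849 ± 54.9 in Control-PyMT (log2 -1.18, adjusted p = 0.000783). *Cebpd*, a C/EBP factor induced in inflammation, averaged 379 ± 155 in MYC-PyMT and 992 ± 47.3 in Control-PyMT (log2 -1.45, adjusted p = 0.00247), and its call ended without either Control-PyMT library (adjusted p = 0.0778 and 0.0715). *Gfi1*, a repressor needed for neutrophil maturation, had 5 and 3 reads in MYC-PyMT and 5 and 6 in Control-PyMT.

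Other whey acidic protein and epithelial defence genes were tested in 14 of 16 cases, with 3 called higher and 6 lower and a median log2 change of -0.23. *Wfdc1*, among the lower ones, passed the level filter only through the Control-PyMT libraries. The median was 0.17 when MYC-PyMT replicate 1 was left out and 0.51 when Control-PyMT replicate 1 was, and 5 genes were called higher when MYC-PyMT replicate 2 was left out. *Wap*, the whey acidic milk protein, averaged 3748 ± 47.0 scaled counts in MYC-PyMT and 552 ± 194 in Control-PyMT (SD, n = 2 each; log2 2.81, limma adjusted p = 3.27e-05). *Lpo*, lactoperoxidase, had 4760.1 and 1267 in MYC-PyMT, against 32.7 and 54.4 in Control-PyMT (log2 5.83, adjusted p = 3.33e-05). *Wfdc2*, an epithelial whey acidic domain protein, averaged 781 ± 194 in MYC-PyMT and 3726 ± 1167 in Control-PyMT (log2 -2.24, adjusted p = 0.000136). Of 9 partners and receptors of the granule proteins 8 were tested and 2 were called, both lower. *F2rl1*, a receptor that serine proteases cleave, had a log2 change of -0.82 (adjusted p = 0.00908) and *Slc22a17*, described as a receptor for lipocalin 2, one of -1.16 (adjusted p = 0.0163). The *F2rl1* call ended without MYC-PyMT replicate 1 or either Control-PyMT library (adjusted p = 0.109, 0.0653 and 0.0599), and that of *Slc22a17* without Control-PyMT replicate 2 (0.120) and without the variance trend (0.0554). *Pecam1*, an endothelial ligand of CD177 in human, had a log2 change of 0.51 (adjusted p = 0.0580), and of 0.61 with the length trend removed (adjusted p = 0.0305).

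**Figure D4:**
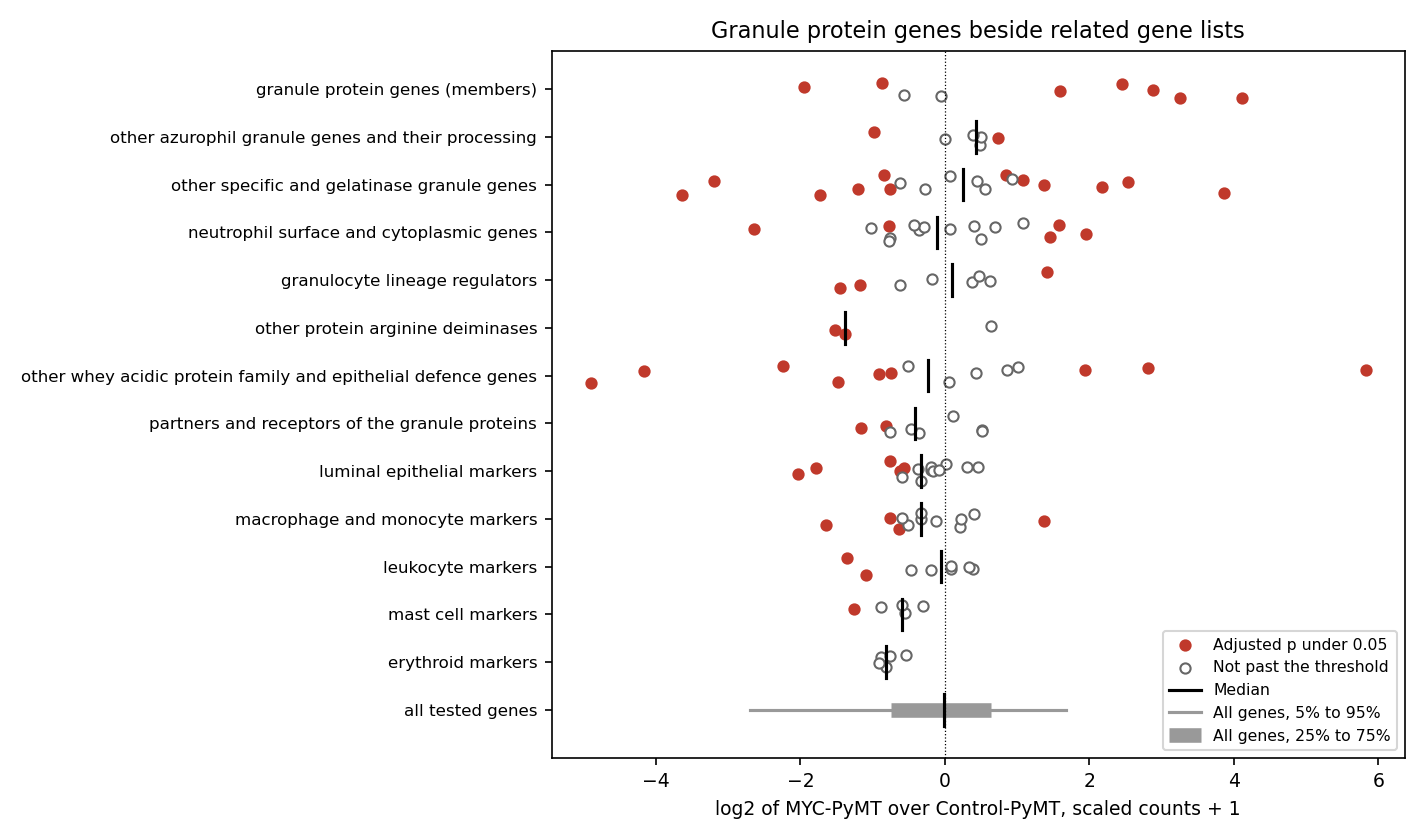
Log2 change in MYC-PyMT over Control-PyMT of every tested gene in the granule set and in 12 related lists (red: limma adjusted p under 0.05; open: not past it; black line: median of each related list), with the spread of all 16725 tested genes at the bottom. The granule genes lie on both sides of 0, from -1.94 for *Ltf* to 4.11 for *Ngp*, and so do the other specific and gelatinase granule genes. *Ngp* and *Camp*, on the higher side, passed the level filter only through the MYC-PyMT libraries.

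Markers of other cells were read in the same libraries. Luminal epithelial markers, all 15 of them tested, were called lower in 5 cases and higher in 0 (limma; 10 not past the test), and their summed level was 162626 and 162637 scaled counts in MYC-PyMT, against 218949 and 204152 in Control-PyMT. This sum was lower in MYC-PyMT, but the markers differed: *Elf5* had a log2 change of 0.46 that did not pass (limma adjusted p = 0.0660). The number called lower was 2 or 3 when any of the 4 libraries was left out, and 2 without the variance trend. *Kit*, *Krt7* and *Cldn4* had the smallest p among them, with log2 changes of -2.03, -1.78 and -0.76, of which the *Cldn4* call ended without 3 of the 4 libraries. Leukocyte markers summed to 5775 and 6434 in MYC-PyMT, against 7695 and 7655 in Control-PyMT, with 2 of 8 called lower, *Cd52* (log2 -1.35) and *Ptprc* (-1.09), and *Coro1a* at -0.47 not past the test. Macrophage and monocyte markers summed to 21210 and 24736 in MYC-PyMT, against 25220 and 25272 in Control-PyMT, with 1 of 12 called higher, *Cd68* (log2 1.38), and 3 lower, among them *Fcgr1* (-0.76, a call lost with any library left out). The number lower was 1 when either MYC-PyMT library was left out, and 2 when either Control-PyMT library was. Markers of mast cells, whose granules also hold serine proteases, summed to 85.5 and 79.1 in MYC-PyMT, against 134 and 184 in Control-PyMT. *Gata2* was the 1 called gene among their 5 (log2 -1.26, a call lost without 3 of the 4 libraries), and *Tpsb2* and *Mcpt4* did not pass (adjusted p = 0.156 and 0.336). Erythroid markers summed to 2098 and 2732 in MYC-PyMT, against 1956 and 9175 in Control-PyMT, with none of 5 past the test and *Alas2*, *Hbb-bt* and *Hbb-bs* at log2 changes of -0.89, -0.91 and -0.82. That rested on single libraries: 4 of the 5 were called lower when Control-PyMT replicate 1 was left out (median log2 change -1.94), 3 when MYC-PyMT replicate 2 was left out and 3 with the replicate block, and the median was 0.31 when Control-PyMT replicate 2 was left out. Control-PyMT replicate 2 thus held the most haemoglobin transcript and the lowest sum of neutrophil surface and cytoplasmic genes. Much of that sum was the cytoplasmic *S100a8* and *S100a9*. The surface receptor *Csf3r* was not lowest there, with 149 scaled counts against 103 in MYC-PyMT replicate 2. The part of any of these cell types in the changes of the granule genes was not tested.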

How the data were processed

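Poly(A) RNA of 4 mouse mammary tumour samples was sequenced with strand-specific libraries. Per the submitters' processing notes, HISAT2 and DESeq2 were used with mouse mm10 (GRCm38.p5); how reads were counted, with which strand setting and annotation, was not given in the sources used here, and the labels do not tie RNA integrity to samples. The authors deposited scaled counts, treated here as a signal. Judged from the values, they are whole read counts divided by 1 size factor per library, and not by gene length. Reads here are values divided by the step that 1 read makes in that library. Gene IDs were matched to GENCODE mouse release M21, GRCm38 (20463 of 20555 found), for positions and merged exon lengths.

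The test was limma 3.58.1 (R 4.3.3; lmFit, then eBayes with a variance trend), two-sided, on log2(value + 1), which understates changes of low genes. An exact permutation test of 2 against 2 libraries cannot pass 0.05 and was not used. Ratios with few reads have exact 95% intervals for counting error only, since without molecular identifiers several reads can come from 1 molecule. The procedure was also run on simulated counts with the same assumed spread between replicates for every gene. That setting is simpler than these data, so it does not show how often calls are wrong here.

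The genes and the 12 lists were chosen with earlier results of these data known. All 10 members are named, as are the 3 tested genes with the smallest p of each list, except 1 that is not reported here; *Plppr3*, *Ctsg*, *Gfi1*, *Csf3r* and *Epcam* were added after their values were seen. *Mpo*, *Ly6g*, *Bpi*, *Prss57*, *Cebpe*, *Ms4a3*, *Padi6*, *Wfdc15b*, *Tpsab1* and *Mrgprb1* were listed but not analysed here, because no row of the deposited table carried these symbols. The alternatives changed the pseudocount (0.5 or 5), the level filter (none or 50), the scaling (TMM or upper-quartile), or the variance trend (dropped). Others were the replicate number as a block, removal of each library's trend with merged exon length (lowess), and leaving out each library with the same genes tested.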

Additional observations from a re-analysis of the deposited data

How the results depend on the processing

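The count of granule genes called higher was 5 in 11 of 13 alternatives, 6 without the level filter, which adds *Elane*, and 4 with a filter of 50, which removes *Camp*. The count called lower was 2, and 1 to 2 when a library was left out, since the *Lcn2* call then ended in 3 of 4 cases. Over all genes, 4118 were called lower, and 2573 to 3433 when a library was left out, with 2703 without Control-PyMT replicate 1 and 2573 without Control-PyMT replicate 2. Of 117 values of single granule genes under the alternatives, 112 kept direction and side of the threshold, 3 (*Lcn2*) lost the call and 2 reversed: *Slpi* ranged from -0.66 to 0.55 with a library left out, and was above 0 in 2 of those 4 cases (0.10 and 0.55). The cause was not tested. Upper-quartile scaling moved the median log2 change of all genes from -0.02 to -0.12, and no granule gene changed its call under it. With the replicate number as a block the counts were 5 higher and 2 lower, as without it, and 3887 and 4152 over all genes; the labels do not say that the numbers pair samples, and the deviations of same-numbered libraries correlated at -0.09 over 16725 genes. The main fit rests in part on spread borrowed across genes. With 1 residual degree of freedom, the block and the fits that leave a library out rest on it still more. A lone library is assumed to vary like the other group. The planned tests of reads with count models were not run. Depth limits *Elane* and *Camp*, with 1 and 3 reads in Control-PyMT.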
